A study of Mus musculus with 75 samples.

Results

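The genes described here are 9 interferon-stimulated genes of the mouse, *Irf1*, *Irf7*, *Stat2*, *Ifit1*, *Ifit3*, *Oasl2*, *Isg15*, *Bst2*, and *Ifitm3*. They were taken by symbol from a table of read counts for whole kidneys, and each of the 9 matched 1 of the table's 32245 genes. Their levels were followed over 75 libraries, 1 per kidney, in 12 groups formed by 6 genotypes or treatments and 2 kidneys. The obstructed kidney was taken 3 days after unilateral ureteral obstruction (UUO), in which a ureter is ligated so that urine backs up into the kidney. The contralateral kidney (CL) of the operated mice served as the comparison.

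The study asked how activation of the endothelial receptor TIE2, or loss of the growth factor PDGFB, bears on kidney injury, and its libraries fall into 3 arms. In the ABTAA arm, adult C57BL6/J or WT mice received ABTAA, an antibody that clusters angiopoietin 2 and so activates TIE2 (label ABT, 7 CL and 7 UUO libraries), or the same dose of human IgG Fc (label IgG, 8 CL and 8 UUO). The *Veptp* arm held mice with floxed *Veptp* (gene symbol *Ptprb*), the phosphatase that restrains TIE2, and the tamoxifen-inducible Cre *Cdh5*-CreERT2, which recombines in endothelial cells (label VeKO, 6 CL and 8 UUO). Its controls were *Veptp* wt/lox littermates that carried the same Cre but received no tamoxifen (label VeWT, 7 CL and 8 UUO), so that tamoxifen differed along with the gene. The UUO libraries labelled VeWT number 1 more than the mice listed for that group, and all 8 were used. In the *Pdgfb* arm, floxed *Pdgfb* was deleted throughout the body with *Actb*-CreERT2 and tamoxifen given 1 week before the experiments (label PbKO, 4 CL and 4 UUO), and the controls were Cre-negative *Pdgfb* wt/lox or lox/lox mice (label PbWT, 4 CL and 4 UUO). The mice of the crossed lines were adults of mixed background. Both sexes were used, the study states that some groups were unbalanced in sex, and the labels do not give it. *Xist*, a transcript of female cells, served as a covariate in some fits. The PbWT CL group also holds kidneys of 2 mice that were sham-operated, which the labels leave unmarked.

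Interferons are cytokines released on infection or tissue damage. Type I interferons bind the receptor formed by IFNAR1 and IFNAR2, whereupon JAK1 and TYK2 activate a factor that contains STAT2 and IRF9 and binds interferon-stimulated response elements (ISREs) in the promoters of target genes. Type II interferon, IFN-γ, binds IFNGR1 and IFNGR2 and acts on a different sequence, the gamma-activated site (GAS). Among the genes followed here, *Irf1*, *Irf7*, and *Stat2* encode transcription factors of the pathway, and the other 6 encode effectors that act on viral RNA, proteins, or membranes. In kidney, such genes can be expressed by tubular, endothelial, and interstitial cells and by infiltrating leukocytes, and these libraries pool all of them.

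To show what interferon-responsive promoters look like in this set, the stretches of promoter that hold an ISRE-like or GAS-like motif are printed for 4 members, read from RefSeq sequence of build GRCm38.p6, 5′ to 3′ on the gene's strand, with the motif in capitals. The ISRE-like motif was GAAANNGAAA on either strand and the GAS-like motif was TTCNNNGAA, which reads the same pattern on both strands, and the window was the 250 bases before the start of the gene. *Irf1* held the GAS-like motif at chr11:53769904-53769952 (+), *Ifit1* held 2 ISRE-like motifs at chr19:34640765-34640833 (+), *Ifit3* held 2 at chr19:34583353-34583436 (+), and *Isg15* held 3 overlapping ones at chr4:156200855-156200916 (-).
*Irf1*: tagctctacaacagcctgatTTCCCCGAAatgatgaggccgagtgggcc
*Ifit1*: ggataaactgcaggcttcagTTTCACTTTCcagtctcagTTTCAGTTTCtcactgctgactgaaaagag
*Ifit3*: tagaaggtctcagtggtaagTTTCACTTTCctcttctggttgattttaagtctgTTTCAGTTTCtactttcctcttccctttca
*Isg15*: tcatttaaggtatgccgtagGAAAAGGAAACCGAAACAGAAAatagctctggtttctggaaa
*Stat2* (1 match) and *Bst2* (2 overlapping matches) also held the ISRE-like motif, and *Bst2* held the GAS-like motif as well. For *Irf7*, *Oasl2*, and *Ifitm3* neither motif was found in this window. Over all 32851 promoters of that length, 2.98% held the ISRE-like and 7.02% the GAS-like motif. A match describes the letters and does not show that a factor binds there.

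In the GENCODE annotation of build GRCm38, *Irf1* lies at chr11:53770014-53778374 (+), *Irf7* at chr7:141262706-141266481 (-), *Stat2* at chr10:128270559-128292849 (+), *Ifit1* at chr19:34640871-34650009 (+), and *Ifit3* at chr19:34583531-34588731 (+). *Oasl2* lies at chr5:114896936-114912234 (+), *Isg15* at chr4:156199424-156200818 (-), *Bst2* at chr8:71534255-71537456 (-), and *Ifitm3* at chr7:141009586-141010770 (-). Exons of *Irf7* overlap *Phrf1* and exons of *Irf1* overlap the model Gm17334, and since the sources do not state whether counting used the strand, reads from such overlaps cannot be assigned with certainty. *Ifit3* shares 51.2% of its 50-base words with its neighbour *Ifit3b*, *Ifitm3* shares 10.0% with *Ifitm1*, *Ifitm2*, and related models, and *Ifit1* shares 7.13% with *Ifit1bl1* and *Ifit1bl2*, so the levels of *Ifit3* above all are uncertain to the extent that shared reads were dropped or split.

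The libraries held 172827 to 2341800 counts (median 757897), and 3 of them held under 250000. Summed over all libraries, a member had 794 to 6039 counts, so that in single libraries a member often had few counts. Levels are given as CPM, counts scaled to a common library total, with factors between the libraries of an arm from the trimmed mean of M-values (TMM), and were not compared between genes or arms. In their names, 45 libraries have a letter directly before a number (plain names) and 30 have a low line between them (split names), and most genes of the *Veptp* arm differed between these forms of name, as described for the members with that arm. In the *Veptp* arm a number in the name is shared by 1 CL and 1 UUO library, and for numbers 3, 4, 7, and 8 the labels give opposite genotypes to the 2 kidneys. *Ptprb* averaged 34.6 CPM in VeKO and 54.7 in VeWT CL kidneys and 33.8 and 52.0 in UUO kidneys, differences that did not pass the test. In CL kidneys *Pdgfb* was no lower in the libraries labelled PbKO (mean 19.4 CPM) than in those labelled PbWT (10.6), and in UUO kidneys it averaged 37.8 and 53.9 CPM (adjusted p = 0.124). These counts, over the whole gene, thus did not show a loss in CL kidneys, and they are not a test of recombination. The paper measured *Pdgfb* in these mice separately, which is not reported here. In the counts the response of *Pdgfb* to UUO was smaller in PbKO than in PbWT kidneys (-1.26, adjusted p = 0.0458). The higher CL level contributes to that difference, and PbKO and PbWT stand for labels throughout. Kidney tubule markers such as *Lrp2* and *Umod* were present in every group, with a summed level of at least 3308 CPM per library.

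*Irf1* rose after UUO in each of the 6 genotypes or treatments, and other members rose with it in IgG, ABT, VeWT, and PbWT kidneys. In VeKO and PbKO kidneys it was the only member called in this fit, which has no term for the form of the library name. With that term 6 of 9 members were called in VeWT and 5 of 9 in VeKO kidneys, as described with the form of the name. In IgG kidneys 6 of the 8 members tested were higher after UUO, where 16.3% of all genes tested were called higher, and in ABT kidneys 5 of 8 were higher, against 12.6%. In VeWT kidneys 3 of 9 members were higher, against 10.0% of genes, and in VeKO kidneys 1 of 9 was higher, against 4.47%. In PbWT kidneys 6 of 8 were higher, against 17.9%, and in PbKO kidneys 1 of 8 was higher, against 3.95%. No member was called lower after UUO in any genotype. The median log2 fold change of the members tested was 1.13 in IgG, 1.20 in ABT, 1.35 in VeWT, 0.97 in VeKO, 1.00 in PbWT, and 0.51 in PbKO kidneys, where the median over all genes lay between -0.01 and 0.04. Without TMM factors the median over all genes moved to 0.23 in IgG, 0.14 in ABT, 0.14 in VeWT, 0.12 in VeKO, and 0.41 in PbWT kidneys. The genes called higher and lower went from 1561 and 1740 to 2493 and 1086 in IgG, from 1210 and 1197 to 1592 and 796 in ABT, from 1195 and 999 to 1388 and 543 in VeWT, from 533 and 415 to 613 and 242 in VeKO, from 1959 and 2118 to 4453 and 1153 in PbWT, and from 432 and 264 to 567 and 152 in PbKO kidneys. The members called higher on that scale numbered 7, 5, 4, 1, 8, and 2. Changes are given as log2 fold changes, each with its standard error and adjusted p. Each call is from edgeR's quasi-likelihood test at an adjusted p under 0.05, and *Oasl2* in the ABTAA arm and *Ifit1* in the *Pdgfb* arm did not pass the filter on low counts, so they have no test in this fit. A whole-kidney library cannot tell more RNA per cell from more cells of a type, and the p-values measure the spread between libraries, each from 1 kidney. CL and UUO kidneys can come from the same mouse, but the labels do not name the mouse. The fit therefore treats all kidneys as independent.

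**Figure D1:**
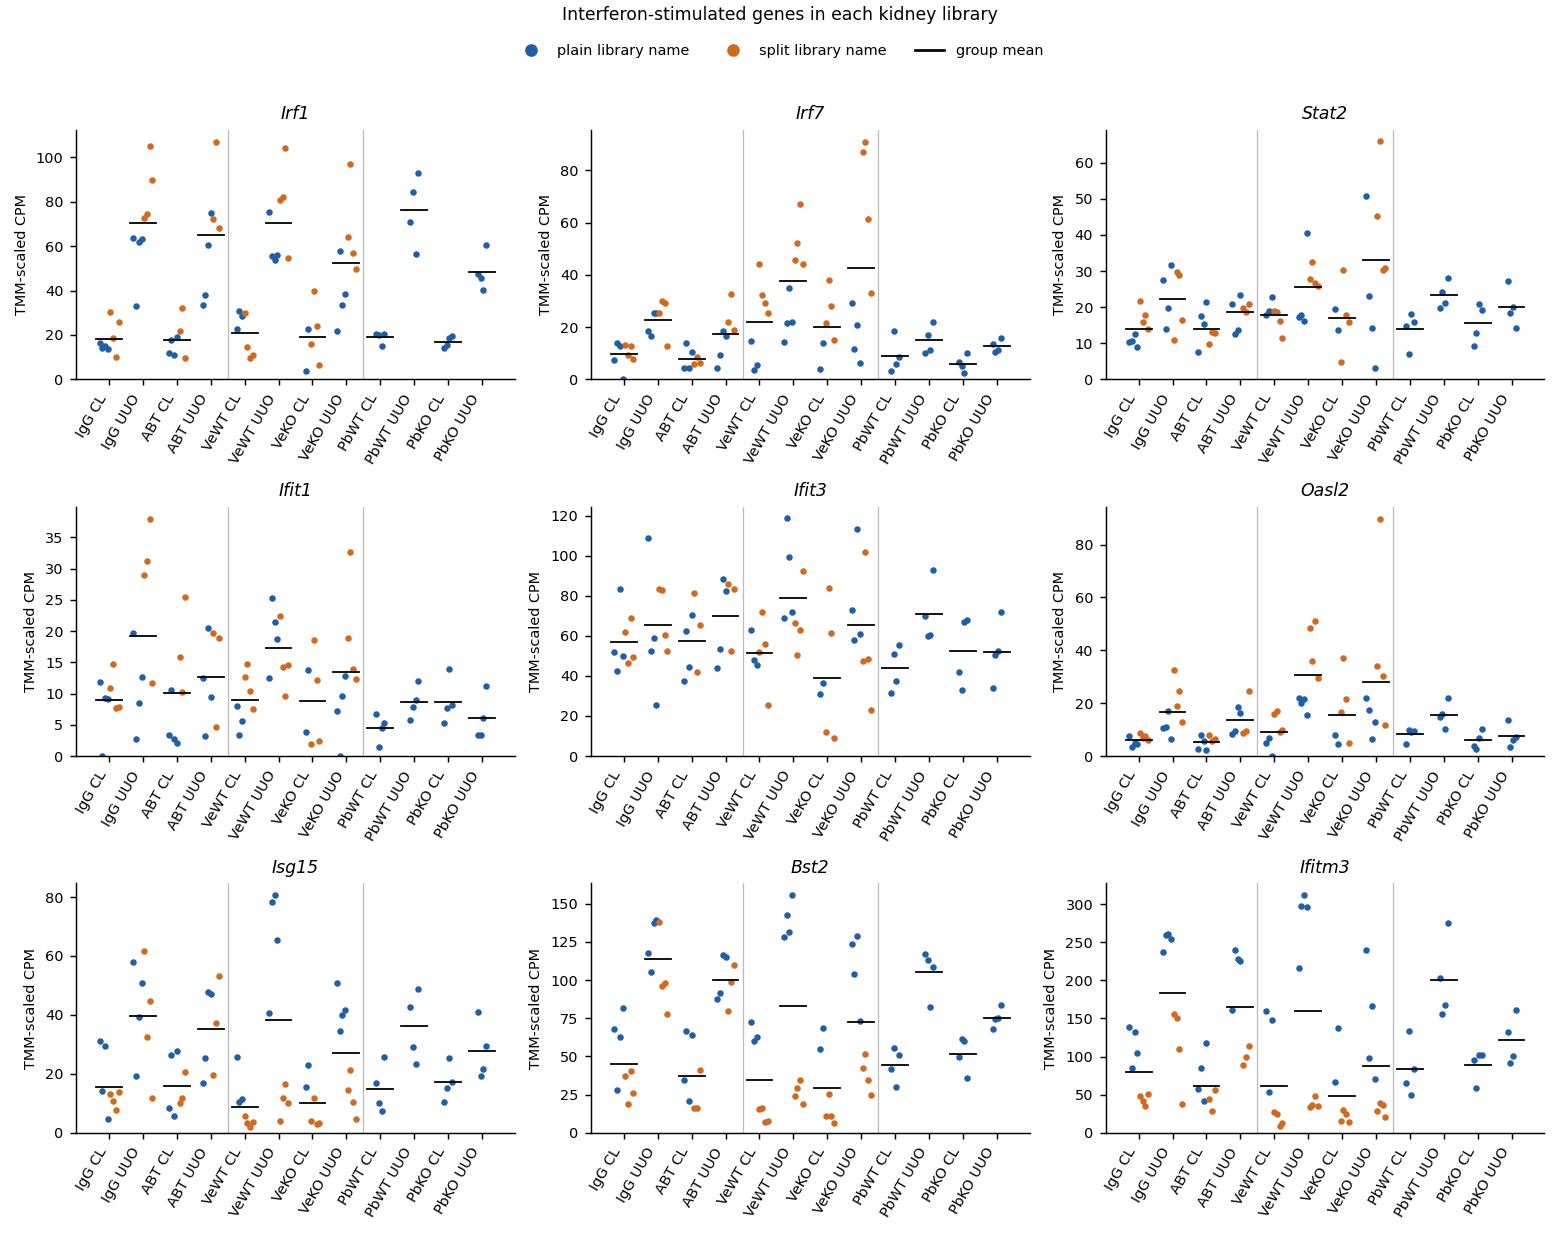
Level of each member in every library, in TMM-scaled CPM (vertical axis of each panel), by group (horizontal axis), with 1 point per library, coloured by whether the library name is plain or split, and a line at the group mean. *Irf1* of UUO kidneys lay above that of CL kidneys without overlap in 5 of 6 genotypes, and in the *Veptp* arm the points of *Ifitm3*, *Bst2*, and *Isg15* fell into 2 levels by the form of the name.

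*Irf1*, which encodes a transcription factor induced by IFN-γ and by other inflammatory signals, showed the clearest separation. It ranged from 10.2 to 30.5 CPM (median 15.8) in CL and from 33.2 to 105 CPM (median 68.1) in UUO kidneys of IgG mice and from 9.55 to 32.0 CPM (median 17.5) in CL and from 33.4 to 107 CPM (median 68.2) in UUO kidneys of ABT mice. In both treatments every UUO kidney lay above every CL kidney, and the rises were nearly equal, at 1.91 (SE 0.25, adjusted p = 3.09e-07) on the log2 scale in IgG and 1.92 (SE 0.26, adjusted p = 1.09e-06) in ABT kidneys. It ranged from 9.78 to 30.8 CPM (median 22.6) in CL and from 53.8 to 104 CPM (median 65.7) in UUO kidneys of VeWT mice, again without overlap, and rose (1.82, SE 0.33, adjusted p = 2.12e-04). In VeKO mice it ranged from 3.90 to 40.0 CPM (median 19.4) in CL and from 21.8 to 97.0 CPM (median 53.4) in UUO kidneys and rose (1.47, SE 0.35, adjusted p = 0.00767), with 5 of 8 UUO kidneys above all CL kidneys. The VeKO call was lost when counts were thinned to a common depth (adjusted p = 0.0530) and in libraries with plain names alone (adjusted p = 0.653). The VeKO libraries with plain names averaged 13.4 CPM in CL (2 libraries) and 37.8 CPM in UUO kidneys (4 libraries). Without the libraries numbered 3, 4, 7, and 8 the VeKO difference was 1.31 with an adjusted p of 0.141, and the VeWT difference remained called at 1.45 (adjusted p = 0.0184). *Irf1* measured 20.3, 19.9, 15.0, and 20.3 CPM in CL and 71.0, 84.4, 56.6, and 92.9 CPM in UUO kidneys of PbWT mice and 14.3, 15.3, 18.5, and 19.3 CPM in CL and 47.6, 45.7, 40.0, and 60.5 CPM in UUO kidneys of PbKO mice. Neither pair of groups overlapped, and the rise was 1.98 (SE 0.20, adjusted p = 2.81e-08) in PbWT and 1.51 (SE 0.23, adjusted p = 1.67e-04) in PbKO kidneys. Among all genes tested, UUO kidneys lay wholly above CL kidneys for 4.44% in IgG, 4.06% in ABT, 3.26% in VeWT, 0.697% in VeKO, 16.9% in PbWT, and 6.21% in PbKO mice.

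*Irf7*, the factor that amplifies type I interferon production, was called higher in both treatments of the ABTAA arm. In the *Veptp* arm it was not called in this fit and was called in both genotypes with the form of the library name as a term. It ranged from 0 to 14.1 CPM (median 11.0) in CL and from 12.8 to 29.8 CPM (median 25.3) in UUO kidneys of IgG mice, the library at 0 counts allowing up to 13.3 CPM, and from 4.19 to 14.0 CPM (median 6.37) in CL and from 4.18 to 32.6 CPM (median 18.5) in UUO kidneys of ABT mice. In IgG mice 7 of 8 and in ABT mice 5 of 7 UUO kidneys lay above all CL kidneys, with rises of 1.10 (SE 0.31, adjusted p = 0.00587) and of 1.23 (SE 0.33, adjusted p = 0.00481). In libraries with plain names alone *Irf7* was called in neither treatment. Its ABT means were 8.28 CPM in CL and 12.1 CPM in UUO kidneys with plain names, and 7.01 and 24.6 CPM with split names. The IgG means were 8.54 and 21.5 CPM with plain and 10.8 and 24.3 CPM with split names. In VeWT mice *Irf7* ranged from 3.42 to 44.0 CPM (median 25.5) in CL and from 14.1 to 66.9 CPM (median 39.5) in UUO kidneys, and in VeKO mice it ranged from 3.90 to 38.0 CPM (median 18.5) in CL and from 6.39 to 90.8 CPM (median 31.1) in UUO kidneys. These groups overlapped widely, and neither difference passed the test (0.69, SE 0.44, adjusted p = 0.321 in VeWT and 1.09, SE 0.48, adjusted p = 0.181 in VeKO). *Irf7* was 3.39, 18.5, 6.01, and 8.54 CPM in CL and 10.2, 17.0, 11.3, and 22.0 CPM in UUO kidneys of PbWT mice, where 1 CL kidney (18.5 CPM, replicate 2) lay above 3 of the UUO kidneys (0.70, SE 0.38, adjusted p = 0.153). Without that kidney the difference passed (adjusted p = 0.0199). In PbKO mice it was 6.51, 5.10, 2.31, and 10.2 CPM in CL and 13.6, 10.3, 11.3, and 15.9 CPM in UUO kidneys, without overlap, although the difference did not pass (0.89, SE 0.46, adjusted p = 0.295).

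*Stat2*, the partner of IRF9 in the factor that binds ISREs, rose least of the members called in IgG kidneys. It ranged from 9.08 to 21.8 CPM (median 13.3) in CL and from 10.9 to 31.7 CPM (median 23.6) in UUO kidneys of IgG mice, with 4 of 8 UUO kidneys above all CL kidneys, and the difference passed the test (0.62, SE 0.23, adjusted p = 0.0362) but was lost on leaving out any of 9 of the arm's 30 libraries (IgG CL replicates 1, 2, 3, 4, and 8 and IgG UUO replicates 1, 4, 6, and 7, adjusted p up to 0.0986). It was also lost by DESeq2 (0.64, adjusted p = 0.0575), without the low-count filter (0.59, adjusted p = 0.142), without shallow libraries (0.58, adjusted p = 0.0590), and in libraries with split names alone (0.33, adjusted p = 0.462). In ABT mice the range was from 7.64 to 21.3 CPM (median 13.1) in CL and from 12.6 to 23.5 CPM (median 19.6) in UUO kidneys, a difference that did not pass (0.42, SE 0.24, adjusted p = 0.218). The VeWT kidneys ranged from 11.6 to 22.7 CPM (median 18.7) in CL and from 16.1 to 40.5 CPM (median 26.2) in UUO kidneys and the VeKO kidneys from 4.94 to 30.2 CPM (median 16.9) in CL and from 3.19 to 65.9 CPM (median 30.6) in UUO kidneys. Neither difference passed, at 0.56 (SE 0.34, adjusted p = 0.291) in VeWT and 0.97 (SE 0.36, adjusted p = 0.0992) in VeKO, although the latter passed without VeKO UUO replicate 4 (adjusted p = 0.0207). *Stat2* was 14.7, 7.11, 18.0, and 16.0 CPM in CL and 19.8, 24.3, 21.0, and 28.0 CPM in UUO kidneys of PbWT mice, without overlap, and rose (0.70, SE 0.27, adjusted p = 0.0429), a call that was lost on leaving out any of 8 of the arm's 16 libraries (PbWT CL replicates 1, 2, and 4, PbWT UUO replicates 2, 3, and 4, and PbKO UUO replicates 2 and 3, adjusted p up to 0.160). It was also lost by DESeq2 (0.71, adjusted p = 0.0786) and without the low-count filter (0.72, adjusted p = 0.0537), at a like fold, and with *Xist* as a covariate (0.53, adjusted p = 0.128). In PbKO mice it was 9.12, 12.7, 20.8, and 19.3 CPM in CL and 27.2, 18.3, 20.0, and 14.3 CPM in UUO kidneys, where the groups overlapped (0.26, SE 0.31, adjusted p = 0.710).

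The IFIT proteins bind viral RNA and limit its translation, and for *Ifit1* and *Ifit3* the single call of this fit was that of *Ifit3* in PbWT kidneys. *Ifit1* ranged from 0 to 14.7 CPM (median 9.19) in CL and from 2.77 to 38.0 CPM (median 16.2) in UUO kidneys of IgG mice (the CL library at 0 counts allows up to 10.3 CPM) and from 2.13 to 25.5 CPM (median 10.2) in CL and from 3.16 to 20.4 CPM (median 12.5) in UUO kidneys of ABT mice, and neither difference passed (1.01, SE 0.42, adjusted p = 0.0622 in IgG and 0.46, SE 0.44, adjusted p = 0.495 in ABT). The IgG difference also passed without TMM factors, without the low-count filter, and in libraries with split names alone (adjusted p up to 0.0352). With a block for the replicate number, which pairs ABT but no IgG libraries, it passed, at 1.01 (adjusted p = 0.0376). It also passed with the form of the library name in the fit (0.98, adjusted p = 0.0340) and without any of IgG UUO replicates 2, 3, and 8 or ABT CL replicate 7 (adjusted p down to 0.0283). In VeWT mice it ranged from 3.42 to 14.8 CPM (median 8.07) in CL and from 9.56 to 25.3 CPM (median 16.6) in UUO kidneys (0.82, SE 0.39, adjusted p = 0.154), and in VeKO mice from 1.98 to 18.5 CPM (median 8.01) in CL and from 0 to 32.7 CPM (median 12.6) in UUO kidneys (0.83, SE 0.43, adjusted p = 0.287), where the UUO library at 0 counts allows up to 17.1 CPM. By the exact test of edgeR, the test of the study, the VeWT difference was called (0.76, adjusted p = 0.0297). UUO and CL kidneys overlapped in all 6 genotypes for this gene. Below the filter in the *Pdgfb* arm and not called there without it, *Ifit1* was 6.78, 1.42, 4.51, and 5.34 CPM in CL and 5.75, 7.89, 8.89, and 12.0 CPM in UUO kidneys of PbWT and 5.21, 7.65, 13.9, and 8.13 CPM in CL and 3.40, 3.43, 6.09, and 11.1 CPM in UUO kidneys of PbKO mice. In PbWT mice 3 of 4 UUO kidneys lay above all CL kidneys, and in PbKO mice none did.

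*Ifit3* ranged from 42.3 to 83.6 CPM (median 50.9) in CL and from 25.4 to 109 CPM (median 59.7) in UUO kidneys of IgG mice (0.24, SE 0.21, adjusted p = 0.401) and from 37.4 to 81.5 CPM (median 62.3) in CL and from 43.9 to 88.6 CPM (median 82.2) in UUO kidneys of ABT mice (0.31, SE 0.21, adjusted p = 0.321). The ranges overlapped in both, and the upper ends of the 95% intervals, 0.65 and 0.74, lay below the rise of *Irf1*. It ranged from 25.5 to 72.1 CPM (median 51.9) in CL and from 50.3 to 119 CPM (median 70.3) in UUO kidneys of VeWT and from 8.81 to 83.8 CPM (median 33.9) in CL and from 23.0 to 113 CPM (median 59.2) in UUO kidneys of VeKO mice, with differences of 0.60 (SE 0.35, adjusted p = 0.261) and 0.73 (SE 0.38, adjusted p = 0.279) that did not pass. *Ifit3* was 31.6, 51.2, 37.6, and 55.5 CPM in CL and 69.7, 60.1, 60.6, and 92.9 CPM in UUO kidneys of PbWT mice, without overlap, and rose there (0.66, SE 0.22, adjusted p = 0.0207). The call was lost without PbWT CL replicate 1 or 3 or PbWT UUO replicate 4 (adjusted p up to 0.0811). Its near-copy *Ifit3b* rose in the same kidneys by 0.79 (adjusted p = 0.0410). In PbKO mice *Ifit3* was 41.7, 33.1, 67.0, and 68.1 CPM in CL and 34.0, 50.3, 52.2, and 71.7 CPM in UUO kidneys, and the groups overlapped (0.04, SE 0.24, adjusted p = 0.960).

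*Oasl2* encodes a protein related to the 2′-5′ oligoadenylate synthetases that sense double-stranded RNA. It did not pass the filter in the ABTAA arm, where it ranged from 3.52 to 8.72 CPM (median 6.30) in CL and from 6.34 to 32.6 CPM (median 14.8) in UUO kidneys of IgG mice and from 2.13 to 7.95 CPM (median 5.81) in CL and from 8.36 to 24.6 CPM (median 9.47) in UUO kidneys of ABT mice, with 7 of 8 IgG and 7 of 7 ABT UUO kidneys above all CL kidneys. Without that filter it was called higher in IgG (1.28, adjusted p = 0.0023) and in ABT kidneys (1.26, adjusted p = 0.0059), and in libraries with split names alone in IgG kidneys (1.44, adjusted p = 0.0107). In VeWT mice it ranged from 0 to 17.0 CPM (median 9.08) in CL and from 15.6 to 51.2 CPM (median 25.7) in UUO kidneys, the CL library at 0 counts allowing up to 16.9 CPM, and rose with 7 of 8 UUO kidneys above all CL kidneys (1.60, SE 0.47, adjusted p = 0.0141). In VeKO mice it ranged from 4.58 to 37.0 CPM (median 12.3) in CL and from 6.37 to 89.8 CPM (median 19.6) in UUO kidneys, where 1 of 8 UUO kidneys lay above all CL kidneys (0.84, SE 0.48, adjusted p = 0.356). Without the libraries numbered 3, 4, 7, and 8, the VeWT difference was 1.38 with an adjusted p of 0.166. *Oasl2* was 4.52, 9.95, 9.02, and 9.60 CPM in CL and 14.7, 15.8, 10.1, and 22.0 CPM in UUO kidneys of PbWT mice, without overlap, although the difference did not pass (0.86, SE 0.35, adjusted p = 0.0594) in this fit. It passed without PbWT UUO replicate 3 (adjusted p = 0.0244), by the exact test of edgeR (0.87, adjusted p = 0.0455), and without TMM factors (1.23, adjusted p = 0.0045). In PbKO mice it was 3.91, 2.55, 6.93, and 10.2 CPM in CL and 13.6, 3.43, 6.09, and 7.17 CPM in UUO kidneys, with groups that overlapped and an estimate of -0.0045.

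*Isg15* encodes a ubiquitin-like protein that is joined to other proteins after interferon. It ranged from 4.54 to 31.1 CPM (median 13.5) in CL and from 11.7 to 61.6 CPM (median 42.0) in UUO kidneys of IgG mice and from 5.58 to 27.7 CPM (median 11.6) in CL and from 16.7 to 53.1 CPM (median 37.3) in UUO kidneys of ABT mice. In IgG mice 6 of 8 and in ABT mice 4 of 7 UUO kidneys lay above all CL kidneys, and the rises were 1.15 (SE 0.35, adjusted p = 0.00954) and 1.18 (SE 0.36, adjusted p = 0.0136). In libraries with plain names alone neither was called. The CL and UUO means there were 19.8 and 41.8 CPM in IgG and 17.0 and 34.2 CPM in ABT mice. In VeWT mice *Isg15* ranged from 2.10 to 25.8 CPM (median 5.50) in CL and from 3.86 to 80.7 CPM (median 28.6) in UUO kidneys and rose (2.23, SE 0.63, adjusted p = 0.0112), and in VeKO mice it ranged from 2.80 to 22.9 CPM (median 7.82) in CL and from 4.74 to 50.9 CPM (median 28.0) in UUO kidneys (1.57, SE 0.70, adjusted p = 0.189). Without the libraries numbered 3, 4, 7, and 8 the VeWT rise was 2.18 (adjusted p = 0.0207). In each of these 2 genotypes 4 of 8 UUO kidneys lay above all CL kidneys. *Isg15* was 16.9, 9.95, 7.52, and 25.6 CPM in CL and 42.8, 29.1, 23.4, and 48.9 CPM in UUO kidneys of PbWT mice, with 3 of 4 UUO kidneys above all CL kidneys, and it rose (1.15, SE 0.31, adjusted p = 0.00484). In PbKO mice it was 10.4, 15.3, 25.4, and 17.3 CPM in CL and 40.8, 19.4, 21.8, and 29.5 CPM in UUO kidneys, where the groups overlapped (0.65, SE 0.36, adjusted p = 0.330).

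*Bst2* encodes tetherin, which holds budding virus at the cell membrane. It ranged from 18.7 to 81.8 CPM (median 38.9) in CL and from 78.1 to 139.5 CPM (median 111) in UUO kidneys of IgG mice and from 15.9 to 66.7 CPM (median 34.8) in CL and from 79.8 to 117 CPM (median 99.0) in UUO kidneys of ABT mice. In IgG mice 7 of 8 UUO kidneys lay above all CL kidneys, in ABT mice all 7 did, and the rises were 1.32 (SE 0.26, adjusted p = 1.16e-04) and 1.42 (SE 0.27, adjusted p = 1.47e-04). In VeWT mice *Bst2* ranged from 6.99 to 72.6 CPM (median 16.5) in CL and from 19.1 to 156 CPM (median 81.7) in UUO kidneys and in VeKO mice from 6.41 to 68.7 CPM (median 18.3) in CL and from 24.8 to 129 CPM (median 62.4) in UUO kidneys. With differences of 1.35 (SE 0.58, adjusted p = 0.109) and 1.44 (SE 0.64, adjusted p = 0.188), neither passed, and 4 of 8 UUO kidneys of each genotype lay above all CL kidneys. With the form of the name as a term *Bst2* was called higher in VeWT (1.16, adjusted p = 1.2e-04) and VeKO kidneys (1.23, adjusted p = 4.84e-04), as it was in VeWT kidneys in each form of name alone, without TMM factors, and without VeWT CL replicate 1 (adjusted p up to 0.0496), and in VeKO kidneys with split names alone and with *Xist* as a covariate (adjusted p up to 0.0151). *Bst2* was 41.8, 55.4, 30.1, and 51.2 CPM in CL and 117, 113, 82.1, and 109 CPM in UUO kidneys of PbWT mice and 49.5, 61.2, 60.1, and 35.6 CPM in CL and 68.0, 74.2, 74.9, and 83.6 CPM in UUO kidneys of PbKO mice. Neither pair overlapped, and the difference passed in PbWT (1.22, SE 0.18, adjusted p = 6.33e-06) but not in PbKO kidneys (0.62, SE 0.20, adjusted p = 0.0609), where it passed on leaving out PbWT CL replicate 3 (adjusted p = 0.0488), without TMM factors (0.70, adjusted p = 0.0268), and with *Xist* as a covariate (0.64, adjusted p = 0.0387).

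*Ifitm3* encodes a membrane protein that blocks the fusion of incoming virus with endosomes. It ranged from 35.6 to 139 CPM (median 68.0) in CL and from 37.3 to 261 CPM (median 197) in UUO kidneys of IgG mice and from 29.1 to 117 CPM (median 55.7) in CL and from 88.4 to 239.9 CPM (median 161) in UUO kidneys of ABT mice. In IgG mice 6 of 8 and in ABT mice 4 of 7 UUO kidneys lay above all CL kidneys, with rises of 1.17 (SE 0.33, adjusted p = 0.00522) and 1.42 (SE 0.35, adjusted p = 0.00237). In VeWT mice *Ifitm3* ranged from 8.39 to 159.7 CPM (median 27.5) in CL and from 33.9 to 312 CPM (median 132) in UUO kidneys (1.45, SE 0.68, adjusted p = 0.147) and in VeKO mice from 14.4 to 137 CPM (median 27.2) in CL and from 20.4 to 239.8 CPM (median 54.9) in UUO kidneys (0.92, SE 0.74, adjusted p = 0.564). The highest CL kidney exceeded the lowest UUO kidney in both, and neither difference passed in this fit. With the form of the name as a term *Ifitm3* was called higher in VeWT kidneys (1.19, adjusted p = 2.28e-04), as it was in each form of name alone (adjusted p up to 0.0139). *Ifitm3* was 65.5, 134, 49.6, and 83.2 CPM in CL and 203, 156, 168, and 276 CPM in UUO kidneys of PbWT mice, without overlap, and rose (1.26, SE 0.23, adjusted p = 1.16e-04). In PbKO mice it was 95.1, 58.6, 102, and 102 CPM in CL and 133, 91.4, 100.1, and 161 CPM in UUO kidneys, and 2 of 4 UUO kidneys lay above all CL kidneys (0.41, SE 0.25, adjusted p = 0.382).

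**Figure D2:**
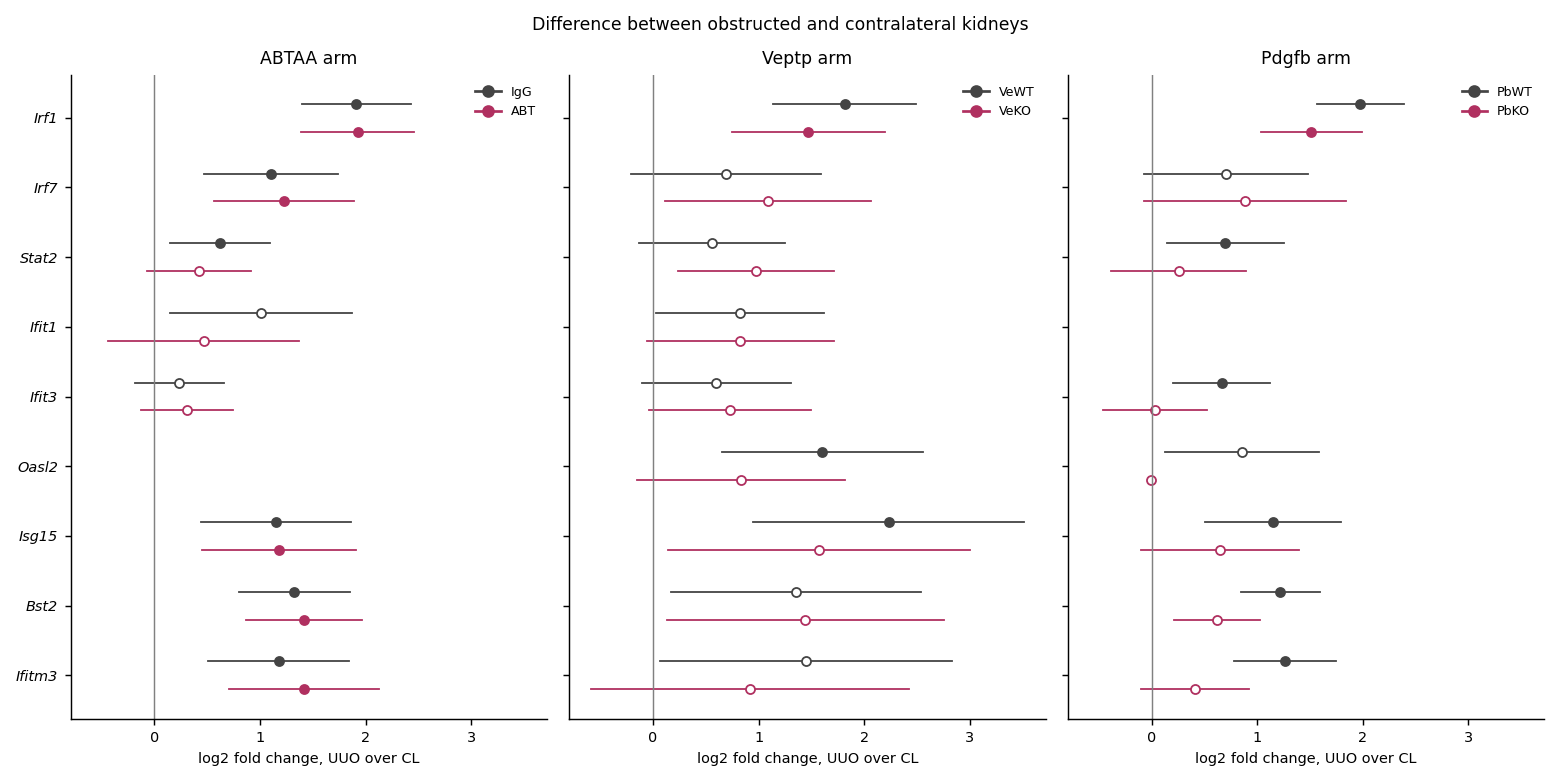
Log2 fold change of UUO over CL kidneys (horizontal axis) for each member, in 1 panel per arm, with points for controls in grey and for treated or knockout mice in red, bars for the 95% interval, and filled points for differences called at an adjusted p under 0.05. *Irf1* lay between 1.47 and 1.98 in all 6 genotypes and was called in each, while in PbKO kidneys the other 7 members tested lay between -0.0045 and 0.89 and were not called. *Oasl2* has no bar in PbKO kidneys because its standard error was not defined, and members that did not pass the filter on low counts have no point.

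The form of the library name moved with the levels of several members, most of all in the *Veptp* arm. Libraries with split names were lower there in *Ifitm3* (log2 difference -2.47, SE 0.19), *Bst2* (-2.13, SE 0.17), and *Isg15* (-2.08, SE 0.31) and higher in *Irf7* (1.70, SE 0.25) and *Oasl2* (1.46, SE 0.38). These 5 differences passed the test, as did 7412 of 13088 genes tested. Depth and the level of Gm42418, which overlaps a ribosomal RNA repeat, moved with the form in this arm, without overlap. The libraries held 178137 to 858624 counts with plain and 960023 to 2341800 with split names, and Gm42418 was at 55510 to 147389 CPM and at 1442 to 4144 CPM. In the ABTAA arm Gm42418 did not overlap either, at 38302 to 132215 and 19055 to 31791 CPM, while depth did. Their part in the levels of the members was not tested. In VeWT mice *Ifitm3* averaged 120.2 CPM in CL and 280.4 CPM in UUO libraries with plain names, and 18.3 and 38.6 CPM in those with split names. For *Irf7* the order of the forms was opposite, with means of 7.88 and 23.1 CPM for plain and 32.8 and 52.1 CPM for split names. UUO kidneys thus had the higher mean within each form. In the ABTAA arm *Ifitm3* (-1.10), *Bst2* (-0.56), *Irf1* (0.61), and *Ifit1* (0.78) differed by the form of the name, as did 4113 of 10596 genes.

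With the form of the name as a term of the fit, 6 of 9 members were called higher after UUO in VeWT kidneys, against 16.6% of all genes, namely *Irf1* (1.94), *Isg15* (1.77), *Oasl2* (1.75), *Ifitm3* (1.19), *Bst2* (1.16), and *Irf7* (0.84). In VeKO kidneys 5 were, against 10.7% of genes, namely *Irf1* (1.55), *Irf7* (1.32), *Bst2* (1.23), *Isg15* (1.12), and *Stat2* (1.08). In the libraries with split names alone 5 members were called in VeWT kidneys (*Irf1*, *Oasl2*, *Isg15*, *Bst2*, and *Ifitm3*, against 13.7% of genes) and 4 in VeKO kidneys (*Irf1*, *Irf7*, *Stat2*, and *Bst2*, against 10.5%). In those with plain names 5 were called in VeWT kidneys (*Irf1*, *Isg15*, *Bst2*, *Ifitm3*, and *Ifit3*, against 7.30% of genes) and 0 in VeKO kidneys, where 2 CL libraries remain and 0% of all genes were called, and *Irf7*, *Ifit1*, and *Oasl2* did not pass the filter. In neither arm was the difference between the forms in the response to UUO called for any member, the lowest adjusted p being 0.413 (*Bst2* in the ABTAA arm). What the form of the name stands for is not stated in the labels, and all libraries of the *Pdgfb* arm have plain names. Among split names of the *Veptp* arm every CL library carries the letter G and every UUO library the letter H. In the ABTAA arm split names carry N for ABT CL, O for ABT UUO, and P for IgG libraries. What goes with the letter cannot be told apart from UUO in VeWT, VeKO, and ABT kidneys with split names.

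**Figure D3:**
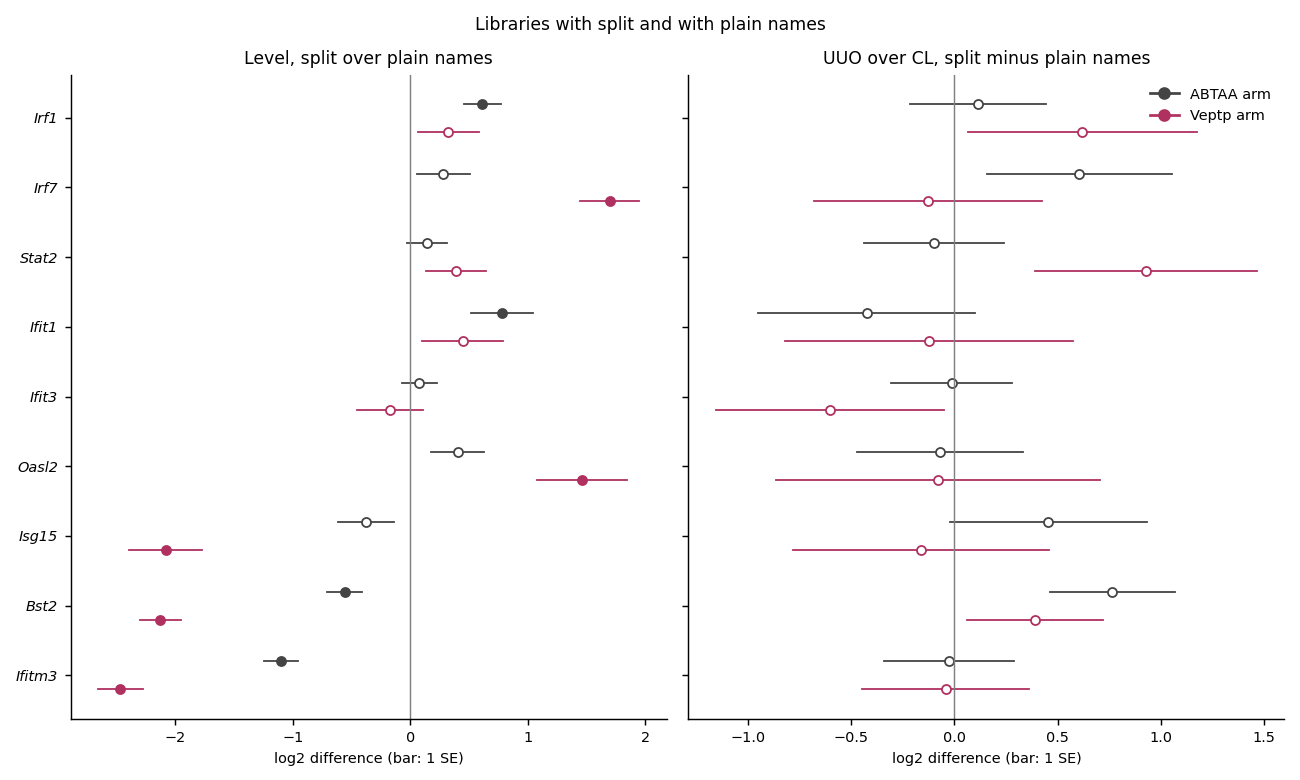
Difference between libraries with split and with plain names, on the log2 scale, for the level of each member (left) and for its response to UUO (right), in the ABTAA arm (grey) and the *Veptp* arm (red), with bars of 1 SE and filled points for an adjusted p under 0.05. Levels of *Ifitm3*, *Bst2*, and *Isg15* were lower and those of *Irf7* and *Oasl2* higher in libraries of the *Veptp* arm with split names, and no difference in the response to UUO was called. The filter of this fit, over groups and forms, kept all 9 members in both arms.

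With ABTAA no member differed detectably from its level with IgG. In UUO kidneys 0 of 8 members differed between ABT and IgG mice, against 0% of all 9579 genes, and 340 genes but no member had an unadjusted edgeR p under 0.05. DESeq2 and the exact test of edgeR also called 0 members. The estimate was -0.11 (95% interval -0.58 to 0.36) for *Irf1*, -0.26 (95% interval -0.86 to 0.34) for *Irf7*, and -0.29 (95% interval -0.76 to 0.19) for *Stat2*. For the effectors it was -0.55 (95% interval -1.39 to 0.30) for *Ifit1*, 0.05 (95% interval -0.37 to 0.48) for *Ifit3*, and -0.11 (95% interval -0.79 to 0.57) for *Isg15*. For the membrane proteins it was -0.16 (95% interval -0.68 to 0.35) for *Bst2* and -0.14 (95% interval -0.81 to 0.53) for *Ifitm3*. The interval was widest for *Ifit1* and narrowest for *Ifit3*, and all 8 included 0. In CL kidneys the estimates ran from -0.39 (*Irf7*) to 0.00 (*Ifit1*), with 0 of 8 members called against 0% of genes and 303 genes but no member at an unadjusted edgeR p under 0.05. The difference between the treatments in the response to UUO ran from -0.55 (*Ifit1*) to 0.24 (*Ifitm3*), again with 0 of 8 called against 0% of genes, and 315 genes but no member had an unadjusted edgeR p under 0.05.

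Between VeKO and VeWT mice 0 of 9 members differed in UUO kidneys, in CL kidneys, or in the response to UUO, against 0% of all 11916 genes in each. An unadjusted edgeR p under 0.05 was found for 426, 229, and 323 genes and for no member, and DESeq2 and, in each kidney, the exact test also called 0 members. In UUO kidneys the estimate was -0.38 (SE 0.30, adjusted p = 1.00) for *Irf1*, -0.61 (95% interval -1.75 to 0.54) for *Isg15*, and -0.95 (95% interval -2.26 to 0.36) for *Ifitm3*. The other 6 members lay between -0.27 (*Ifit3*) and 0.40 (*Stat2*). The intervals of *Ifitm3*, *Isg15*, and *Bst2* reached down to -2.26, -1.75, and -1.33, so a decrease beyond 1 on the log2 scale in these genes could not be resolved with this spread. With the form of the name in the fit, *Bst2* changed sign to 0.11 and *Ifitm3* was -0.65, and no member was called. Without the libraries numbered 3, 4, 7, and 8 the count was also 0.

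UUO kidneys labelled PbKO had lower levels of *Irf1*, *Oasl2*, and *Ifitm3* than those labelled PbWT. In this arm the read counts of CL kidneys did not show the loss of *Pdgfb* that the labels name. *Xist* averaged 357 CPM in the PbWT and 167 CPM in the PbKO UUO kidneys. Since the labels do not give sex, sex and genotype cannot be told apart here. Calls that changed with *Xist* as a covariate are given below. Of the 8 members tested 3 were lower, against 6.60% of all genes, and the estimates of all 8 lay below 0, with a median of -0.45 where the median of all genes was -0.02. *Oasl2* was 14.7, 15.8, 10.1, and 22.0 CPM in the PbWT and 13.6, 3.43, 6.09, and 7.17 CPM in the PbKO UUO kidneys. Of the PbKO kidneys 3 lay below all PbWT kidneys, and the gene was lower by a log2 difference of -1.18 (SE 0.36, adjusted p = 0.0239). *Ifitm3* was 203, 156, 168, and 276 CPM in PbWT and 133, 91.4, 100.1, and 161 CPM in PbKO UUO kidneys, overlapping by 1 library of each, and was lower (-0.72, SE 0.23, adjusted p = 0.0282). *Irf1* was 71.0, 84.4, 56.6, and 92.9 CPM in PbWT and 47.6, 45.7, 40.0, and 60.5 CPM in PbKO UUO kidneys, also overlapping by 1 library of each, and was lower (-0.63, SE 0.18, adjusted p = 0.0136).

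The other 5 members tested did not pass. *Bst2* came nearest (-0.46, SE 0.17, adjusted p = 0.0629) and was called lower by the exact test, the test of the study (-0.45, adjusted p = 0.0244), and with a filter on a mean count of 20 (adjusted p = 0.0399), and the estimates were -0.43 for *Isg15*, -0.35 for *Ifit3*, -0.30 for *Stat2*, and -0.17 for *Irf7*. The 3 calls depended on single libraries. None remained without PbWT UUO replicate 4 or without PbKO UUO replicate 3, where *Irf1* had an adjusted p of up to 0.0733. *Oasl2* was lost on leaving out PbWT UUO replicate 2 or 4 or PbKO UUO replicate 2 or 3 (adjusted p up to 0.106) and with the level of *Xist* as a covariate (-0.98, adjusted p = 0.0738), and *Ifitm3* on leaving out PbWT UUO replicate 1 or 4 or PbKO UUO replicate 2 or 3 (up to 0.127), while *Bst2* passed without PbWT UUO replicate 3 (adjusted p = 0.0280). In CL kidneys 0 of 8 members differed, against 0% of 10923 genes, of which 379 had an unadjusted edgeR p under 0.05, and the estimates ran from -0.36 (*Irf7*) to 0.28 (*Ifit3*).

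The difference between PbKO and PbWT mice in the response to UUO, which sets each UUO group against its own CL group, was called for 0 of 8 members, against 1.90% of genes called lower. It was -0.85 (95% interval -1.56 to -0.15) for *Ifitm3* and -0.60 (95% interval -1.16 to -0.05) for *Bst2*, the 2 members with an interval below 0. An unadjusted edgeR p under 0.05 was found for 2369 genes, these 2 members among them. For *Irf1* it was -0.46 (95% interval -1.13 to 0.20), and for *Oasl2* it was -0.86 (95% interval -2.13 to 0.41). A response to UUO called for 6 members in PbWT and 1 in PbKO kidneys was thus not shown to differ for any single member in this fit. Without PbWT CL replicate 2 *Ifitm3* was called (-1.16, adjusted p = 0.0232), and without TMM factors *Ifitm3* and *Bst2* were, against 6.12% of genes called lower. Without TMM factors the median of all genes in PbKO against PbWT UUO kidneys shifted to -0.29, and the genes called went from 1314 higher and 721 lower to 657 higher and 2502 lower, with 5 members lower.

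**Figure D4:**
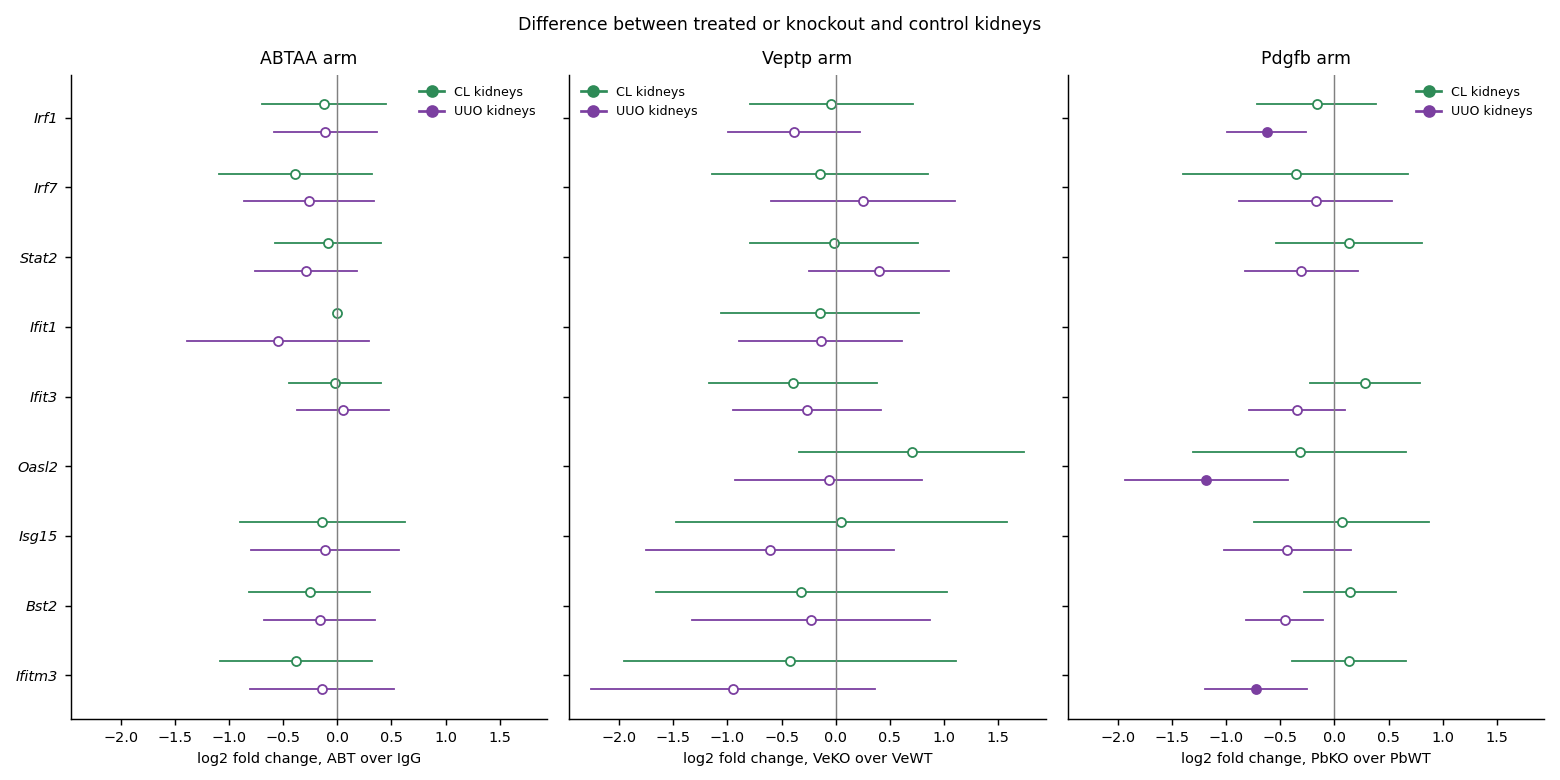
Log2 difference between treated or knockout mice and their controls (horizontal axis) for each member in CL and UUO kidneys, in 1 panel per arm, with bars for the 95% interval and filled points for an adjusted p under 0.05. The called points are *Oasl2*, *Ifitm3*, and *Irf1* in UUO kidneys of the *Pdgfb* arm, all below 0. *Ifit1* in CL kidneys of the ABTAA arm is drawn without a bar because its standard error was not defined.

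Markers of other cells moved with the same comparison. In PbKO against PbWT UUO kidneys 6 of 11 macrophage and monocyte markers were lower, against 6.60% of all genes, including *Mrc1* (-1.87), *Ptprc* (-1.11), *Ccr2* (-1.07), and *Csf1r* (-0.64). The summed level of the 11 markers was 442 to 507 CPM in PbKO and 638 to 982 CPM in PbWT UUO kidneys, without overlap, and 158 to 221 and 127 to 254 CPM in the CL kidneys. Lower as well were 4 of 5 fibroblast and mural markers and 3 of 8 endothelial markers. Of the tubule markers 7 of 9 were higher, where 1314 of 10923 genes tested were. The noncoding RNA Gm42418, which overlaps a ribosomal RNA repeat, averaged 28882 CPM in PbWT and 50421 CPM in PbKO UUO kidneys (adjusted p = 0.0385). The part of these shifts in the levels of *Irf1*, *Oasl2*, and *Ifitm3* was not tested.

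The same macrophage markers rose with UUO beside the members, 11 of 11 in IgG, 10 of 11 in ABT, 10 of 11 in VeWT, 9 of 11 in VeKO, 11 of 11 in PbWT, and 6 of 11 in PbKO kidneys. Their summed level was 159 to 266 CPM in IgG CL and 563 to 1198 CPM in IgG UUO kidneys, and each marker had counts in at least 59 of the 75 libraries. Markers of T and NK cells, B cells, and neutrophils did not pass the filter on low counts in any arm. The summed level of the 9 T and NK cell markers was 5.91 to 15.3 CPM in IgG CL and 16.6 to 57.1 CPM in IgG UUO kidneys, without overlap. It was 11.3 to 17.0 CPM in PbKO and 20.0 to 29.4 CPM in PbWT UUO kidneys, also without overlap. B cell markers summed to at most 12.3 CPM and neutrophil markers to at most 107.6 CPM in any library, the latter in a VeWT UUO kidney. Of 5 markers of plasmacytoid dendritic cells, a major source of type I interferon, only *Tcf4* passed the filter. It held 3041 counts over all 75 libraries, where the others held from 51 (*Siglech*, in 26 libraries) to 239 (*Ccr9*). *Tcf4* thus cannot be read as a measure of these cells here. It rose in PbWT kidneys (0.60) and was lower in PbKO than in PbWT UUO kidneys (-0.71). Of 5 fibroblast and mural markers 5 rose in IgG, ABT, VeWT, and PbWT kidneys and 2 in VeKO and PbKO kidneys. Of 9 tubule markers 7 fell in IgG and ABT, 8 in PbWT, and 5 in VeWT, VeKO, and PbKO kidneys, and of 8 endothelial markers at most 2 rose and at most 1 fell in any of the 6. Their part in the rise of the members was not tested.

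Among the other genes of the pathway, the ligands were hardly detected. Over all 75 libraries the 11 interferon genes held 0 to 19 counts each, the most for *Ifnk* (19), with 5 each for *Ifnz* and *Ifng*, 1 each for *Ifnb1*, *Ifna1*, *Ifna2*, *Ifna5*, *Ifne*, *Ifnl2*, and *Ifnl3*, and 0 for *Ifna4*, which allows up to 0.0473 CPM over the pooled libraries. None could be tested. The receptors, in contrast, rose with UUO. In IgG kidneys 4 of 5 tested were higher, namely *Ifngr2* (1.44), *Ifngr1* (1.27), *Ifnar2* (0.94), and *Ifnar1* (0.78), whereas *Il10rb*, a chain of the type III receptor, was at 0.28 and did not pass. The same 4 were higher in ABT, VeWT, and PbWT kidneys. In VeKO kidneys *Ifngr2* (1.09) and *Ifngr1* (0.87) were, in PbKO kidneys *Ifngr2* (1.12) and *Ifngr1* (0.80) were, and *Ifngr1* was lower in PbKO than in PbWT UUO kidneys (-0.49).

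Of the signalling genes 6 of 12 rose in IgG kidneys, led by *Socs3* (4.28), *Jak1* (0.61), *Ptpn2* (0.90), and *Irf9* (0.90). *Socs3* encodes an inhibitor of JAK signalling that many cytokines induce, and *Irf9* the DNA-binding partner of STAT2. The count was 5 of 12 in ABT, 5 of 13 in VeWT, 3 of 13 in VeKO (*Socs3*, *Irf9*, and *Irf8*), 8 of 13 in PbWT, and 1 of 13 (*Socs3*, 2.78) in PbKO kidneys. *Socs3* (-1.49), *Irf8* (-0.90), and *Irf9* (-0.55) were lower in PbKO than in PbWT UUO kidneys. Of the sensors of nucleic acid and their adaptors 4 of 7 rose and 1 fell in IgG kidneys. *Tmem173*, which encodes STING, rose by 2.61 and *Ddx58*, which encodes RIG-I, by 1.11, and *Mavs*, which encodes the adaptor of RIG-I, fell by 0.52. In PbKO kidneys 1 of 7 rose (*Myd88*, 0.87). In PbKO against PbWT UUO kidneys *Tmem173* (-1.27) and *Ddx58* (-0.82) were lower.

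Other genes induced by type I interferon formed a list of 45 in the table. In IgG kidneys 22 of the 34 tested were higher and 1, *Samd9l* (-0.44), was lower, and the higher ones were led by *Parp9* (1.56), *Parp14* (1.66), *Slfn2* (1.51), and *Lgals3bp* (1.30). The number higher was 16 of 34 in ABT, 19 of 41 in VeWT, 12 of 41 in VeKO, 25 of 39 in PbWT, and 4 of 39 in PbKO kidneys (*Ifi204*, *Slfn2*, *Oas1a*, and *Rtp4*, at 1.49 to 2.59). In PbKO against PbWT UUO kidneys 6 of 39 were lower, against 6.60% of all genes, including *Parp9* (-0.81), *Ifit2* (-0.84), *Slfn5* (-0.77), and *Epsti1* (-1.09), and 0 were higher. Genes that respond to IFN-γ formed a separate list. In IgG kidneys 23 of 25 were higher, led by *Cxcl10* (3.81), a chemokine for T cells, *Tgtp1* (2.85), a guanosine triphosphatase, and *Psmb10* (1.59) and *Tap2* (1.60), which serve antigen presentation. The count was 23 of 25 in ABT, 18 of 27 in VeWT, 15 of 27 in VeKO, 22 of 25 in PbWT, and 19 of 25 in PbKO kidneys, and 2 of 25, *Tap2* (-0.87) and *Gbp7* (-0.63), were lower in PbKO than in PbWT UUO kidneys, a share near the 6.60% of all genes. Whether the counts of the 2 lists differ was not tested. Neither list had a called gene between ABT and IgG or between VeKO and VeWT UUO kidneys.

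The members also varied together between kidneys of the same group. After the mean of each group and form of name was removed, the level of a member correlated over the 75 libraries with the mean of the other members at a Spearman's rho of 0.742 for *Ifitm3*, 0.699 for *Isg15*, 0.691 for *Ifit3*, 0.633 for *Bst2*, 0.625 for *Irf7*, 0.540 for *Ifit1*, 0.513 for *Oasl2*, 0.473 for *Irf1*, and 0.405 for *Stat2*. The median over 12252 genes was 0.106 and the 99th percentile 0.539, so *Irf1*, *Oasl2*, and *Stat2* lay below that percentile. The most alike pair was *Irf7* and *Ifitm3* (0.653). Among the genes most like the mean of the members were *Tmsb4x* (0.795), *Ifi27l2a* (0.768), *Sparc* (0.713), *Ets1* (0.707), *Lgals9* (0.700), *Tagln* (0.692), *Laptm5* (0.680), *Lhfp* (0.680), and *Rtp4* (0.669). These values are descriptions, and both genes of a pair are read from the same libraries and so share their depth and composition.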

How the data were processed

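Whole-kidney RNA of 75 kidneys was sequenced by Smart-seq3. Per the labels and the methods of the study, the authors merged the 4 wells of each sample, mapped reads with STAR 2.7.3a (build mm10 in the submitters' processing notes), removed duplicates by molecular identifiers with UMI-tools 1.1.4, and counted genes with featureCounts of Subread 1.4.6-p5. The deposited values are raw counts per gene. No source used here gives the annotation or the strand setting.

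Each arm was fitted over its 4 groups in R 4.3.3 with edgeR 4.0.16 (TMM, filterByExpr with a minimum count of 10, glmQLFit, glmQLFTest), and p-values were adjusted over all genes tested (Benjamini-Hochberg) at 0.05. Alternatives included the test of the study (exact test of edgeR) and DESeq2 1.42.0. Standard errors were log2 fold changes divided by the square root of F, and were left undefined where p exceeded 0.98. The procedure was tested on simulated data. The members, gene lists, and tests were chosen with earlier results of these data known. The text names the members, the ligands and receptors, and up to 4 genes of each other list by the lowest adjusted p, plus genes singled out later to account for small counts. Some genes that this rule covers are not reported here. Of 214 pairs of libraries of the same group 0 were identical.

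In the ABTAA arm 3 CL and 3 UUO libraries share a number (9, 11, and 12), and their deviations from the group means correlated at 0.339, 0.167, and 0.131 over 10406 genes, each over 0.1, so the numbers were taken to pair them. In the *Veptp* arm 1 of 8 numbers fell under 0.1 (number 5, 0.0703), so its numbers were not taken to pair libraries. The others lay from 0.127 (number 6) to 0.459 (number 3), a range that includes the values of the ABTAA arm. Numbers 3, 4, 7, and 8, whose labels give opposite genotypes to the CL and UUO library, correlated at 0.459, 0.290, 0.138, and 0.287. Whether such libraries come from 1 mouse with conflicting labels was not tested. The VeKO and VeWT results with split names rest on the labels as given.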

Additional observations from a re-analysis of the deposited data

Results flagged for a closer look

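In 4 of the 108 sets formed by a member and a group, 1 library stood apart from the others of its group by Dixon's test at the 95% level, which by chance flags about 1 set in 20. *Ifitm3* was lowest in PbKO CL replicate 2, at 58.6 CPM, where the nearest library had 95.1 CPM. *Irf1* was lowest in PbWT CL replicate 3, at 15.0 CPM, with the nearest at 19.9 CPM. *Isg15* was highest in VeWT CL replicate 1, at 25.8 CPM, with the nearest at 11.4 CPM. *Oasl2* was highest in VeKO UUO replicate 6, at 89.8 CPM, with the nearest at 34.0 CPM. No cause was tested for any of the 4.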

How the results depend on the processing

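The edgeR exact test, DESeq2 with its size factors, and leaving out shallow libraries moved no count of members called by over 1.5 times. With a filter on a mean count of 20, 3 members each were called after UUO in IgG and ABT kidneys, and with counts thinned to a common depth 3 in IgG, 3 in ABT, 1 in VeWT, and 0 in VeKO kidneys. Under both settings 4 members passed the filter in the ABTAA arm, and 5 did in the *Veptp* arm when thinned. All genes called higher were then 20.5% in IgG and 13.6% in ABT kidneys with the stricter filter and 17.4%, 11.0%, 7.19%, and 2.49% in the same 4 groups when thinned. Without TMM factors 2 were called in PbKO kidneys, 5 between PbKO and PbWT UUO kidneys, and 2 for their difference in response, where 6.12% of genes were called lower. Omitting the low-count filter gave 1 for that difference, against 0.830% of genes. With *Xist* as a covariate 3 were called in VeKO and 2 in PbKO kidneys, where 6.13% and 5.25% of all genes were called higher. Without numbers 3, 4, 7, and 8 in the *Veptp* arm 0 were called in VeKO kidneys, against 0.852% of genes. With the form of the name as a covariate 6 were called in VeWT and 5 in VeKO kidneys. Plain names alone gave 3 in ABT (7.22% of all genes), 5 in VeWT, and 0 in VeKO kidneys, and split names alone gave 5 in VeWT and 4 in VeKO kidneys. Leaving out the 3 shallow libraries, those under 250000 counts, was chosen after seeing the counts, as was the test of the response by the form of the name. The cause of these shifts was not tested.

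With the replicate number as a block, 6 members were called in VeWT and 8 in VeKO kidneys. Of all genes 14.3% and 10.1% were then called higher (10.0% and 4.47% without the block). The numbers of the *Veptp* arm were not taken to pair libraries, and some join libraries labelled with opposite genotypes. In the ABTAA arm the block covered only the ABT libraries numbered 9, 11, and 12 and no IgG library. IgG kidneys were thus not compared within mice. With this block *Ifit1* was called in IgG kidneys, and no other call changed.

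Estimates that changed sign were not called in either setting. For ABT against IgG UUO kidneys the block gave 0.0594 for *Bst2*, -0.0291 for *Ifit3*, and 0.198 for *Ifitm3*, plain names alone -0.0298 and omitting shallow libraries -0.0268 for *Ifit3*, and split names alone 0.0972 for *Irf7* and 0.0830 for *Isg15*. For VeKO against VeWT UUO kidneys *Bst2* was 0.113 with the form covariate, 0.502 with split names alone, and 0.186 with *Xist*. Split names alone gave 0.341 for *Ifit1* and 0.188 for *Isg15*, plain names alone -0.298 for *Stat2*, the block -0.0165 for *Irf7*, omitting shallow libraries 0.0151 for *Ifit1* and 0.0260 for *Oasl2*, and omitting numbers 3, 4, 7, and 8 0.292 for *Oasl2*. After UUO, *Ifit1* was -0.302 in ABT kidneys with split names alone, and in PbKO kidneys *Ifit3* was -0.341 when thinned and *Oasl2* 0.0329 by DESeq2 and 0.0740 without TMM factors. For PbKO against PbWT UUO kidneys *Irf7* was 0.0020 with *Xist*.

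Leaving out each library in turn also turned estimates that were not called. *Ifit3* ranged from -0.0268 to 0.213, *Irf1* from -0.284 to 0.0021, and *Isg15* from -0.278 to 0.0426 between ABT and IgG UUO kidneys, *Oasl2* from -0.669 to 0.0846 between VeKO and VeWT, and *Irf7* from -0.355 to 0.0057 between PbKO and PbWT. In PbKO kidneys after UUO, *Ifit3* ranged from -0.163 to 0.224 and *Oasl2* from -0.228 to 0.547. The number of members called then ranged from 5 to 8 in IgG, 5 to 6 in ABT, 3 to 4 in VeWT, 1 to 2 in VeKO, 4 to 6 in PbWT, and 1 to 2 in PbKO kidneys, from 0 to 4 between PbKO and PbWT UUO kidneys, and from 0 to 1 for their difference in response. At these counts *Ifit1* and *Oasl2* failed the filter in 1 arm each.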
